A study of Mus musculus with 59 samples.

Results

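The DYRK kinases and their adaptor Dcaf7 were followed in the prefrontal cortex of mice that carry a mutation in 1 of the 2 copies of Dyrk1a, the founding gene of the family. The set was chosen by gene name: the 5 Dyrk genes of the mouse (Dyrk1a, Dyrk1b, Dyrk2, Dyrk3 and Dyrk4) and Dcaf7, 6 of the 18088 genes in the deposited table. All 6 were found, and 5 passed a minimum of 10 normalised counts in at least 4 libraries. Dyrk4 did not pass it. RNA-seq libraries of polyadenylated RNA came from 59 C57BL/6J mice at postnatal day 25, after 3 weeks of drug (days 3 to 24) received through the milk of their mothers. The heterozygous mice (het, Dyrk1a+/I48X) comprised 10 given lithium, 10 given fluoxetine and 10 given vehicle, and the wild-type mice (WT) comprised 10 given lithium, 9 given fluoxetine and 10 given vehicle. Each of these groups held 5 females and 5 males, except for 4 males among the WT fluoxetine mice. The mutation is in the germ line and so in every cell. The labels do not say which pups shared a dam and hence a drug dose, so p-values measure the spread between pups only. In bulk tissue, fewer cells of a type and less RNA per cell cannot be told apart.

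DYRK kinases phosphorylate themselves on a tyrosine of the activation loop while they are being made, and afterwards act only on serine and threonine of other proteins. DYRK1A is dosage-sensitive in the brain: in people the loss of a copy causes intellectual disability with a small head, and the gene lies on the chromosome that is present in an extra copy in Down syndrome. DYRK1A and its closest relative DYRK1B form class I and bind DCAF7, a WD40-repeat protein that brings substrates and partner kinases to them. DYRK2, DYRK3 and DYRK4 form class II.

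The site of the mutation is shown because every genotype comparison rests on it. On GRCm38, codon 48 of Dyrk1a (ENSMUSG00000022897, chr16:94570010-94695517, plus strand) lies in coding sequence of exon 3 of the 12 exons of transcript Dyrk1a-201, at chr16:94659628-94659630. The normal codon is ATA, for isoleucine, and 47 of the 763 residues, 6.16% of the protein, come before it. In the reference sequence of chr16:94659601-94659657, plus strand, the codon is in capitals.
Dyrk1a codon 48: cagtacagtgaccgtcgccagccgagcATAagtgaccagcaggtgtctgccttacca
The labels call the allele I48X and give no base change. The deposited values sum reads over the whole gene, so mutant and normal transcripts are counted together.

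The feature that defines the family is the Tyr-X-Tyr motif of the activation loop, whose second tyrosine is the one each kinase phosphorylates on itself. The coding sequence around it is shown for the 5 kinases, from the principal transcript in GENCODE, with the tyrosine codons in capitals, to show how near the members are to each other where reads could be shared.
Dyrk1a: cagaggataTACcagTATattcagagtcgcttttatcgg
Dyrk1b: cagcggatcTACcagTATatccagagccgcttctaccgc
Dyrk2: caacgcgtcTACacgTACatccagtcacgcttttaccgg
Dyrk3: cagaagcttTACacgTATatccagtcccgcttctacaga
Dyrk4: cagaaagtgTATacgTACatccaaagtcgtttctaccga
On GRCm38 these lie at chr16:94671584-94673369 (Dyrk1a, plus strand), chr7:28184522-28185100 (Dyrk1b, plus strand), chr10:118860191-118860229 (Dyrk2, minus strand), chr1:131129310-131129348 (Dyrk3, minus strand) and chr6:126885370-126886658 (Dyrk4, minus strand), where Dyrk1a, Dyrk1b and Dyrk4 span an intron. The class I pair has glutamine between the tyrosines (cag) and the 3 class II kinases have threonine (acg). Over their aligned residues, Dyrk1a and Dyrk1b were 75.39% identical, Dyrk2 and Dyrk3 were 66.24% identical, and the other 8 pairs of kinases lay between 38.91% and 51.98%. Dcaf7 is unrelated to them in sequence.

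The members differed widely in level. Per kilobase of exon, Dcaf7 (ENSMUSG00000049354, chromosome 11) averaged 1423 ± 92.2 normalised counts (SD over the 59 libraries), above 95.8% of all genes. Dyrk2 (ENSMUSG00000028630, chromosome 10) followed with 362 ± 58.5, Dyrk1a with 280 ± 36.7, Dyrk1b (ENSMUSG00000002409, chromosome 7) with 249 ± 16.5 and Dyrk3 (ENSMUSG00000016526, chromosome 1) with 87.2 ± 22.7 normalised counts per kilobase. Dyrk4 (ENSMUSG00000030345, chromosome 6) was near the floor, with 2.09 ± 1.45. Dcaf7 was above Dyrk2 in 59 of 59 libraries, and Dyrk1b above Dyrk3 in 59 of 59. Dyrk2 exceeded Dyrk1a in 55 libraries and Dyrk1a exceeded Dyrk1b in 56, so the neighbours in the middle of this order overlapped.

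**Figure D1:**
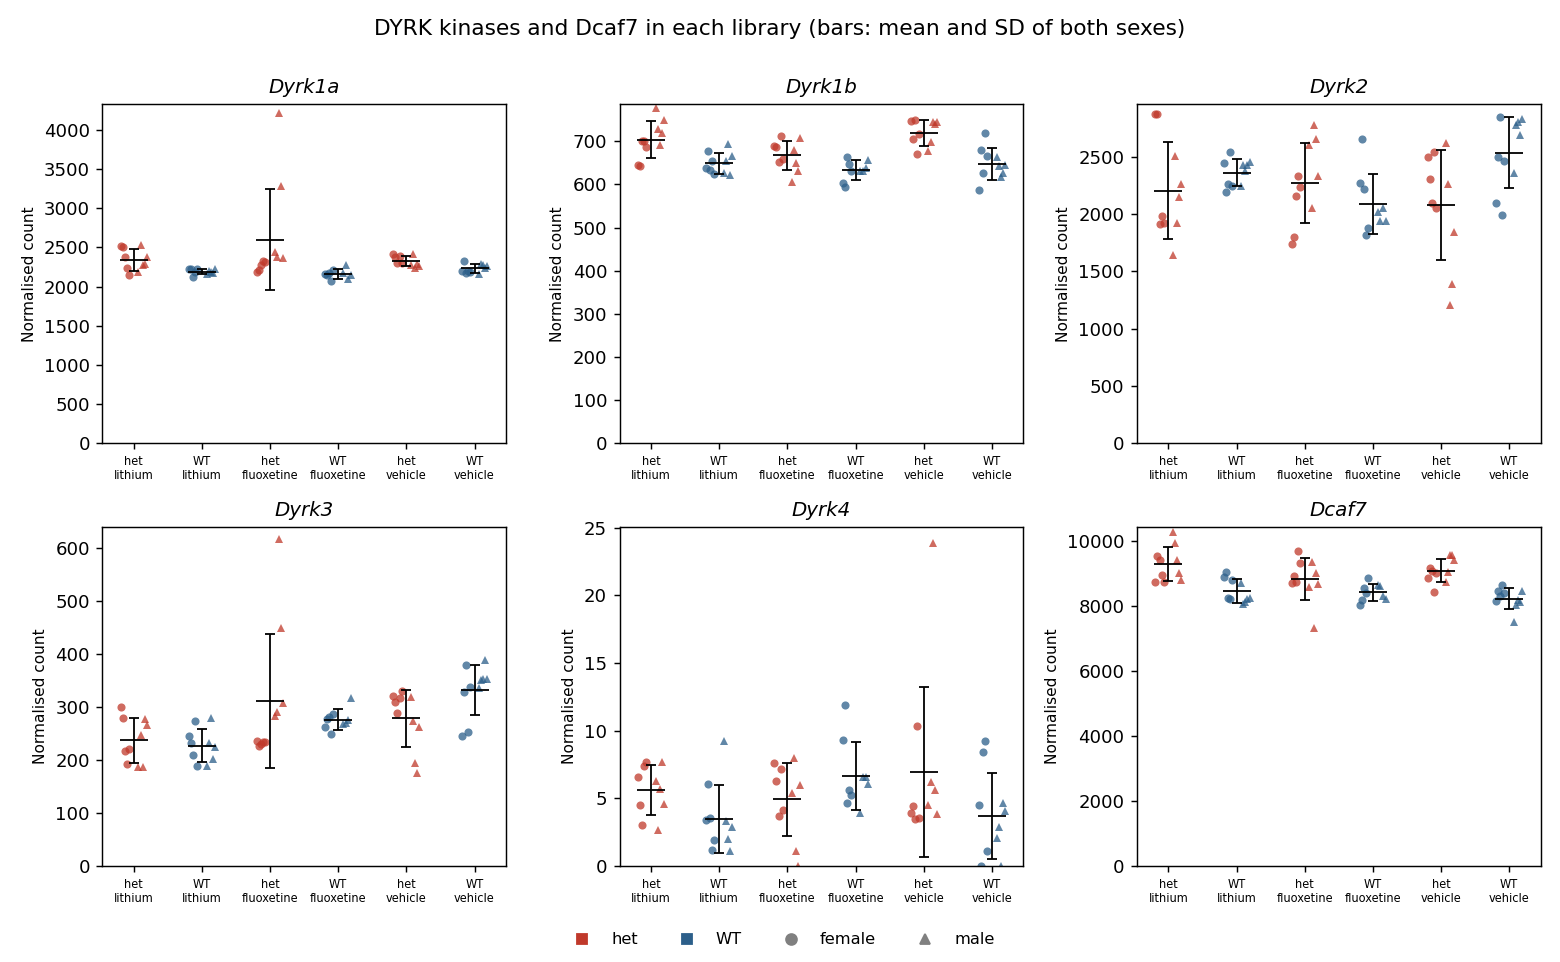
Normalised count of each member (vertical axis, from 0) in every library, by genotype and drug, with females as circles and males as triangles; black bars give the mean and SD of both sexes. Dyrk1a, Dyrk1b and Dcaf7 sit slightly higher in het mice than in WT mice under each drug, Dyrk2 and Dyrk3 scatter widely, and 2 het fluoxetine males stand out in Dyrk1a and Dyrk3.

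Libraries held 24391022 to 33842466 counts, with a median of 27601196, and Dyrk1a rested on 1783 to 3785 counts in each. Markers of cortical excitatory neurons were present throughout, with the vesicular glutamate transporter Slc17a7 at 24780 to 55400 normalised counts. The 14 olfactory bulb markers were also present and varied far more: Doc2g ran from 115 to 8273 normalised counts. The summed value of the 14 markers was 2974 to 54706 in het vehicle mice and 2660 to 34031 in WT vehicle mice, and of all libraries it was highest in het vehicle males 3 and 4. A pair of het fluoxetine males, 3 and 4, stood apart in another way. Over 16 glucocorticoid and cell stress genes the summed values were 62070 in male 3 and 25242 in male 4, against 13589 to 17542 in the other 57 libraries, and Fkbp5 reached 8496 and 3668 normalised counts, against a median of 1006 over all libraries. Not every gene of that list was raised: Tsc22d3 was at 1849 and 1111 normalised counts in males 3 and 4, against a median of 1815. Ddit3 was at 335 and 279, against a median of 375, and Dnajb1 at 1320 and 1453, against 1425. Results that could rest on these features are given with and without those 2 males, and with the mean of the olfactory markers as a covariate.

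Dyrk1a RNA was not lower in het mice than in WT mice. It was slightly higher under each treatment. Under lithium, the lowest, median and highest values were 2141, 2330 and 2530 normalised counts in het mice, against 2120, 2190 and 2226 in WT mice. Under fluoxetine they were 2182, 2348 and 4214 in het mice, against 2066, 2155 and 2272 in WT mice. With vehicle they were 2240, 2299 and 2415 in het mice, against 2163, 2221 and 2327 in WT mice. In 28 of 30 het libraries the value was above the mean of WT mice of the same drug and sex, while the ranges overlapped in 5 of the 6 combinations of drug and sex. The excess of het over WT means in these combinations was between 2.24%, in vehicle males, and 35.2%, in fluoxetine males. In fluoxetine males it was 20.4% without het fluoxetine male 3, 31.2% without male 4 and 10.3% without both.

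Averaged over the treatments and sexes, Dyrk1a was higher in het mice by 0.13 ± 0.03 on the log2 scale (SE), or 9.37%, with an adjusted p of 0.00768 by limma. The 95% interval ran from 0.07 to 0.19. Values are log2(normalised count + 1) from 1 fit to all 59 libraries, and the Benjamini-Hochberg adjustment covers all 17901 genes tested. Without the 2 het fluoxetine males the difference was 0.09 ± 0.01 (limma adjusted p = 0.00029).

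Taken within each treatment, the same fit called Dyrk1a in none of them, at 0.06 with vehicle (adjusted p = 0.451), 0.09 under lithium (0.311) and 0.23 under fluoxetine (0.113). That fit shares its spread with the 2 outlying males in every comparison. A test that uses only the libraries compared, the two-sided exact permutation of genotype within sex, gave p = 0.00495 with vehicle, 0.00387 under lithium and 0.00431 under fluoxetine, with all 3 adjusted values at 0.00495 over the 3 treatments. Under fluoxetine without the 2 males, the exact permutation test gave a difference of 0.11 and p = 0.000907. With 1 library left out, the exact permutation p under fluoxetine ran from 0.00034 to 0.0666, and it was over 0.05 without WT fluoxetine male 1 (0.0585), 3 (0.0666) or 4 (0.0607).

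Dyrk1b, the other class I kinase and a regulator of cell cycle exit and muscle differentiation, was higher in het mice by 0.11 ± 0.02 over the treatments (limma adjusted p = 0.000241). With vehicle, the lowest, median and highest values were 670, 728 and 749 normalised counts in het mice, against 586, 645 and 719 in WT mice. The vehicle males did not overlap, with 678, 698, 746, 739 and 745 normalised counts in het males 1 to 5, against 663, 644, 618, 626 and 645 in WT males 1 to 5. Over all treatments, 27 of 30 het libraries were above the WT mean of their drug and sex. The excess of het over WT means was between 2.4%, in fluoxetine males, and 12.78%, in vehicle males. In fluoxetine males 3 of 5 het libraries were above the WT mean.

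Dcaf7, the adaptor of both class I kinases, was higher in het mice by 0.11 ± 0.02 over the treatments (limma adjusted p = 0.000241). Its lowest, median and highest values with vehicle were 8442, 9057 and 9573 normalised counts in het mice, against 7526, 8247 and 8645 in WT mice. Under lithium they were 8746, 9223 and 10284 in het mice, against 8051, 8251 and 9041 in WT mice. Het males did not overlap WT males with vehicle or under lithium. In 29 of 30 het libraries Dcaf7 was above the WT mean of the same drug and sex, the exception being fluoxetine male 3 with 7337 normalised counts. The excess of het over WT means was between 1.63%, in fluoxetine males, and 14.85%, in vehicle males. In fluoxetine males it was 5.33% without het fluoxetine male 3, 0.37% without male 4 and 4.88% without both.

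These 3 differences are small, between 8.23% and 9.37%, but stood near the top of the genome-wide ranking. Only 0.0391% of the genes tested had a smaller p than Dcaf7 in the comparison over the treatments, 0.0447% had a smaller p than Dyrk1b, and 1.29% a smaller p than Dyrk1a. In all, 21.4% of genes were called in that comparison and 26% without the 2 het fluoxetine males, so a call alone says little there. With the olfactory marker mean as a covariate, 0.525% of genes were called, and the differences of Dyrk1a (0.15), Dyrk1b (0.10) and Dcaf7 (0.09) were among them. With the covariate and without the 2 males, 0.235% of genes were called (42 of 17901). Dyrk1a, at 0.10 with an adjusted p of 5.29e-05 by limma, Dyrk1b, at 0.11 with 0.0031, and Dcaf7, at 0.10 with 7.76e-05, were 3 of those 42. Each was also called in every one of the 59 fits that left out 1 library. Those fits had no covariate and called 2547 to 5202 genes.

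**Figure D2:**
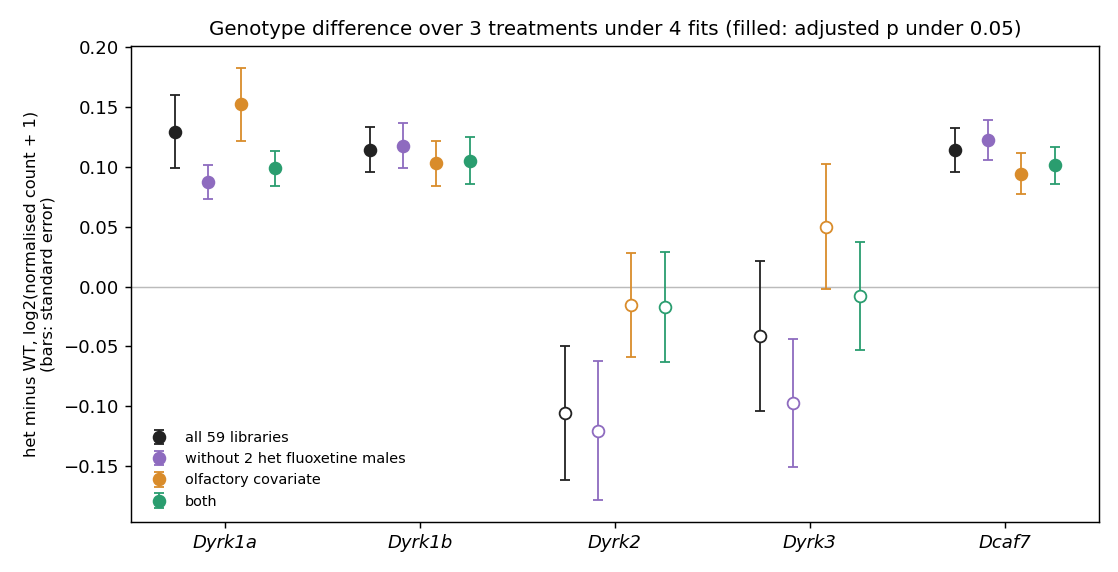
Difference between het and WT mice over the 3 treatments in log2(normalised count + 1) (vertical axis) for the 5 members tested, under 4 fits, with standard errors; filled points have an adjusted p under 0.05. Dyrk1a, Dyrk1b and Dcaf7 stay between 0.09 and 0.15 and filled in all 4, while Dyrk2 and Dyrk3 lie near 0 once the olfactory covariate is in the fit.

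The ranges of het and WT values did not overlap for 1.21% of the genes tested in lithium females, 1.73% in lithium males, 2.09% in fluoxetine females, 2.8% in fluoxetine males, 0.704% in vehicle females and 12% in vehicle males. Among the members, Dcaf7 was so separated in lithium and vehicle males, Dyrk1b in vehicle males, Dyrk1a and Dyrk2 in fluoxetine males, Dyrk3 in fluoxetine females and vehicle males, and Dyrk4 in none. The gap was small for Dyrk2, with a lowest het fluoxetine male at 2057.1 and a highest WT fluoxetine male at 2056.9 normalised counts. Het values were the higher ones in these cases except for Dyrk3.

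In the vehicle groups alone, 3 of the 5 members tested were called, where 13.1% of all genes were. Dyrk1b (0.15 ± 0.03, limma adjusted p = 0.00997) and Dcaf7 (0.14 ± 0.03, adjusted p = 0.0163) were higher in het mice and Dyrk2 was lower (−0.32 ± 0.10, adjusted p = 0.0325). With the olfactory covariate none of the 3 was called, at 0.13 for Dyrk1b, 0.10 for Dcaf7 and −0.11 for Dyrk2. In the fit of the vehicle groups alone, which called 139 genes, Dcaf7 was called (adjusted p = 0.0383), and Dyrk1b (0.0514) and Dyrk2 (0.0875) were not. The call of Dcaf7 was lost without het vehicle male 3 (adjusted p = 0.0557) or 4 (0.0524). The call of Dyrk2 was lost, with adjusted p between 0.0526 and 0.116, without any 1 of het vehicle females 2, 3 and 5, het vehicle males 3 and 4, WT vehicle females 2, 3 and 5 and WT vehicle male 2.

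Dyrk2 is the class II kinase that phosphorylates the proteasome. Its values in vehicle males 1 to 5 were 2616, 2265, 1203, 1387 and 1840 normalised counts in het mice, against 2357, 2781, 2800, 2692 and 2831 in WT mice. The lowest were those of het males 3 and 4, the libraries with the lowest mean of the 10 cortical excitatory neuron markers in the series. These markers summed to 75825 to 142828 normalised counts in het vehicle males, against 149531 to 160892 in WT vehicle males, and 5 of 10 were called lower and 0 higher in het vehicle mice. Their part in the Dyrk2 and Dyrk3 values was not tested. In vehicle females, het mice had 2500, 2306, 2100, 2540 and 2057 normalised counts, against 2100, 2501, 2846, 1991 and 2464 in WT mice, and the ranges overlapped throughout. The olfactory marker mean, in log2 units around the mean of all libraries, was 1.35 ± 0.96 in het vehicle males, against −1.80 ± 0.71 in WT vehicle males (SD, n = 5 each). Its part in the result was not tested beyond the covariate fit, in which limma called 0 genes between vehicle groups, with 1181 at an unadjusted p under 0.05. Without the covariate limma called 2353 genes and edgeR 2252.

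Dyrk3, the class II kinase that dissolves stress granules and other condensates, followed Dyrk2 in vehicle males. Its values were 318, 273, 194, 176 and 262 normalised counts in het males 1 to 5, against 336, 350, 353, 389 and 352 in WT males 1 to 5, without overlap. In vehicle females the means were 313 ± 15.6 in het mice and 309 ± 57.7 in WT mice (SD, n = 5 each). Averaged over both sexes, the difference of −0.27 ± 0.11 was not called (limma adjusted p = 0.0782). It was called without the 2 het fluoxetine males (adjusted p = 0.0315), and without het vehicle male 1 (0.0232) or WT vehicle female 1 (0.0474) or 4 (0.0436). With the olfactory covariate it was −0.06.

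Beyond genotype, drug and sex, the members followed the olfactory markers to different degrees. After group means were subtracted, r with the olfactory marker mean over 59 libraries was −0.69 for Dyrk2 (rho = −0.78), −0.63 for Dyrk3 (rho = −0.64), −0.32 for Dyrk1a (rho = −0.42), 0.29 for Dyrk1b (rho = 0.33), 0.50 for Dcaf7 (rho = 0.46) and 0.21 for Dyrk4 (rho = 0.22). By permutation and adjusted over the 6 relations, the p-values of r were 3e-05 for Dyrk2 and for Dyrk3, 8e-05 for Dcaf7, 0.018 for Dyrk1a, 0.0337 for Dyrk1b and 0.106 for Dyrk4. The permutation p of rho, adjusted likewise, was 3e-05 for Dyrk2 and for Dyrk3, 0.00056 for Dcaf7, 0.00175 for Dyrk1a, 0.0124 for Dyrk1b and 0.0932 for Dyrk4. Without the 2 libraries farthest from the median of the marker mean, r was −0.67 for Dyrk2, −0.60 for Dyrk3, 0.45 for Dcaf7, −0.30 for Dyrk1a, 0.29 for Dyrk1b and 0.24 for Dyrk4. The permutations, here and for the pairs of members, shuffled deviations over all 59 libraries and did not allow for the 12 group means subtracted. Their p-values are therefore somewhat too small, so those not far under 0.05 are not secure. The libraries share tissue dissection and depth, which these correlations do not separate.

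**Figure D3:**
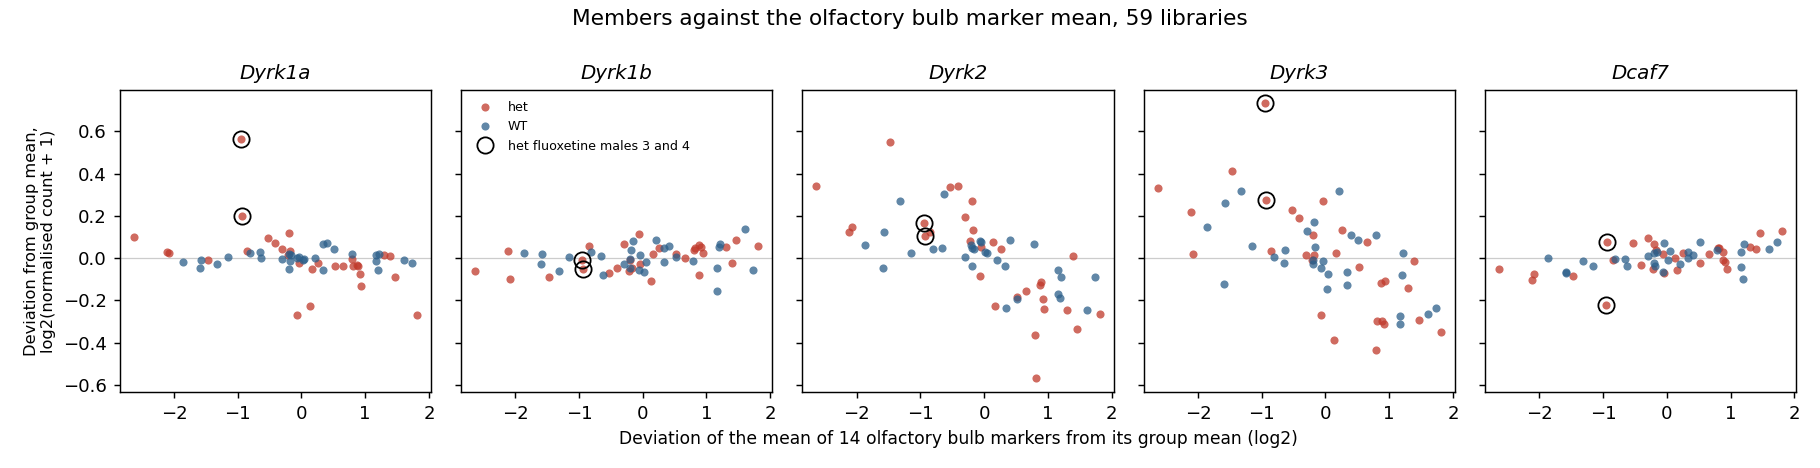
Deviation of each member from its group mean in log2(normalised count + 1) (vertical axis) against that of the mean of 14 olfactory bulb markers (horizontal axis, log2), 1 point per library, with het fluoxetine males 3 and 4 ringed. Dyrk2 and Dyrk3 fall as the marker mean rises (r = −0.69 and −0.63), and Dcaf7 rises (r = 0.50).

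Lithium inhibits GSK3, a kinase that acts on some proteins after DYRK kinases have phosphorylated them at another site. In WT mice, Dyrk3 was the 1 member that changed under lithium: it fell by 0.54 on the log2 scale, to a fold of 0.686 (SE 0.11, limma adjusted p = 0.00987), in a comparison in which 0.162% of genes were called. WT lithium males 1 to 5 had 189, 231, 278, 201 and 224 normalised counts, against 336, 350, 353, 389 and 352 in WT vehicle males, without overlap. WT lithium females had 246, 232, 209, 273 and 188 normalised counts, against 245, 328, 379, 253 and 337 in WT vehicle females, with overlap. All 10 WT lithium libraries were below the vehicle mean of their sex. Every alternative and all 20 fits without 1 library kept the call, at −0.56 to −0.52 and −0.58 to −0.50. Over both sexes the olfactory marker mean was −0.79 ± 1.30 in WT lithium mice and −0.96 ± 1.43 in WT vehicle mice (SD, n = 10 each). In males it was −1.20 under lithium and −1.80 with vehicle, and in females −0.38 and −0.12. With the marker mean as a covariate the difference of Dyrk3 was −0.52, and its part in the result was not tested further.

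In het mice under lithium no member was called, with 0.497% of genes called. Dyrk3 differed from vehicle by −0.22 ± 0.11 (limma adjusted p = 0.457), with 7 of 10 libraries below the vehicle mean of their sex. Its lowest, median and highest values were 186, 234 and 300 normalised counts in het lithium mice, against 176, 299 and 329 in het vehicle mice. It was called with the olfactory covariate and without the 2 fluoxetine males, at −0.26 (adjusted p = 0.0287). The difference between the genotypes in the lithium response of Dyrk3, 0.32 ± 0.15, was not called by limma, with an adjusted p of 0.9998, so a weaker response in het mice was not shown. Dyrk1a, Dyrk1b, Dyrk2 and Dcaf7 differed between lithium and vehicle by −0.03 to 0.10 in het mice and by −0.09 to 0.04 in WT mice, and none was called.

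Between het and WT mice under lithium, 0.0112% of genes were called and no member was among them. Dcaf7 was nearest, at 0.13 ± 0.03 (limma adjusted p = 0.13). It was called without the 2 het fluoxetine males (adjusted p = 0.033) and without het lithium male 5 (0.0341). Only 0.0614% of genes had a smaller p than Dcaf7 in this comparison.

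Fluoxetine blocks serotonin reuptake. In het mice it was accompanied by lower Dyrk1b, by −0.11 ± 0.03 (limma adjusted p = 0.0393), where 4.27% of genes were called. The lowest, median and highest values were 606, 670 and 713 normalised counts in het fluoxetine mice, against 670, 728 and 749 in het vehicle mice, and 10 of 10 het fluoxetine libraries were below the vehicle mean of their sex. The size held at −0.10 without the 2 outlying males, with an adjusted p of 0.202, and the fit of het fluoxetine and vehicle mice alone gave an adjusted p of 0.321. The call was also lost, at 0.061 to 0.0901, without any 1 of het fluoxetine females 3 and 5, het fluoxetine males 3 and 4, het vehicle females 1, 3 and 5 and het vehicle males 3, 4 and 5. In WT mice Dyrk1b differed by −0.03 (adjusted p = 0.663), and the difference between the genotypes, −0.08 ± 0.05, was not called (limma adjusted p = 0.298).

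In WT mice under fluoxetine no member was called, with 0.447% of genes called. Dyrk2 differed by −0.29 ± 0.10 (limma adjusted p = 0.131) and Dyrk3 by −0.25 ± 0.11 (adjusted p = 0.228). Both were called in the fit of WT fluoxetine and vehicle mice alone, with adjusted p of 0.0263 for Dyrk2 and 0.0427 for Dyrk3. Here the olfactory marker mean was 0.76 ± 0.40 in WT fluoxetine mice (SD, n = 9), against −0.96 ± 1.43 in WT vehicle mice (SD, n = 10), and with it as a covariate neither was called. Between het and WT mice under fluoxetine, 0.0112% of genes were called and no member among them. Dyrk1a, at 0.23 ± 0.05, was called by edgeR (adjusted p = 0.0307) and not by limma. With 1 library left out limma called it too, at an adjusted p of 0.0498 without het fluoxetine male 1, 0.00811 without male 2 and 0.00947 without male 5. Between fluoxetine and vehicle in het mice, Dyrk1a differed by 0.13 ± 0.05 (limma adjusted p = 0.129), and by 0.00 without males 3 and 4.

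**Figure D4:**
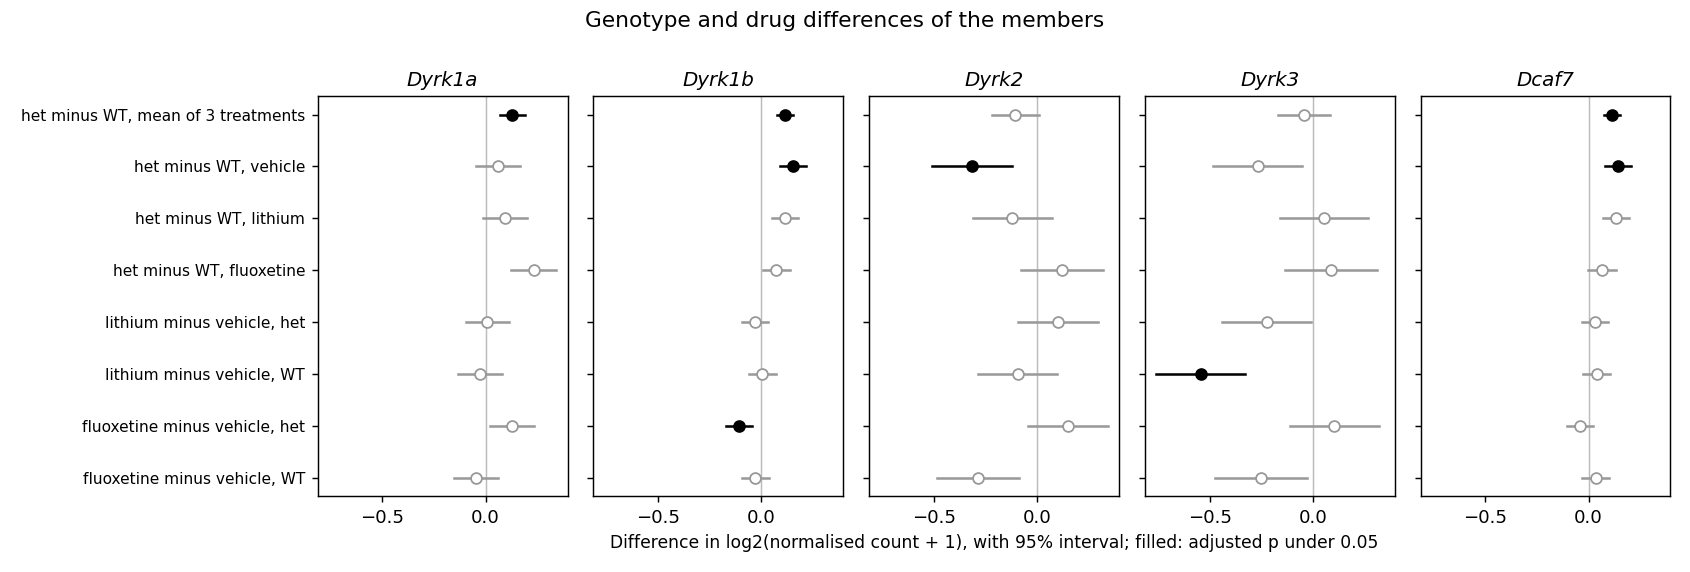
Differences of the 5 members tested in 8 comparisons, in log2(normalised count + 1) with 95% intervals (horizontal axis); filled points have an adjusted p under 0.05. The genotype differences of Dyrk1a, Dyrk1b and Dcaf7 over the treatments and the fall of Dyrk3 under lithium in WT mice (−0.54) stand apart from 0. Also filled are the genotype differences of Dyrk1b (0.15), Dcaf7 (0.14) and Dyrk2 (−0.32) with vehicle, and Dyrk1b under fluoxetine in het mice (−0.11).

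Het fluoxetine males 3 and 4 set the upper end of 2 members. Het fluoxetine males 1 to 5 had 2442, 2371, 4214, 3278 and 2368 normalised counts of Dyrk1a, while the other 57 libraries of the series lay between 2066 and 2530. For Dyrk3 the same males had 283, 291, 617, 449 and 308 normalised counts, with 176 to 389 in the other 57 libraries. Dyrk1b, Dyrk2 and Dyrk4 of these 2 males lay within the range of the other libraries, and Dcaf7 was lowest of all in male 3, at 7337. In the same 2 males the 8 striatal markers summed to 15938 in male 3 and 13281 in male 4 (normalised counts), against 4402 to 7217 in the other 57 libraries. The mean of the 7 astrocyte markers, at 0.24 in male 3 and 0.10 in male 4 (log2), lay within the range of the others, −0.17 to 0.25, although Gfap alone was at 14903 and 14113 normalised counts, against a median of 3982 over all libraries. The part of these markers in the Dyrk1a and Dyrk3 values was not tested.

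In the fit to all libraries, no member's genotype effect was called as different between drugs or sexes. Interaction terms called 0% of genes between lithium and vehicle, 0% between fluoxetine and vehicle and 0% between females and males by limma, and edgeR also called 0 in each. The unadjusted limma p was under 0.05 for 497 genes in the lithium term, 3917 in the fluoxetine term and 1474 in the sex term. The nearest member was Dyrk2 between fluoxetine and vehicle, at 0.44 ± 0.14 (limma adjusted p = 0.103), called without het fluoxetine male 2 (0.0359) or het vehicle male 1 (0.0352). With array weights, limma called 3173 genes in the fluoxetine term, Dyrk2 among them at 0.43 ± 0.11 (adjusted p = 0.00971). Females and males differed in 0.156% of genes, with no member among them: the differences of the 5 members, female minus male, lay between −0.08 and 0.02.

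Dyrk4 is known in rodents mainly from the testis. It had 0 to 28 counts per library and reached 10 normalised counts in 3 of 59. It was at 0 in het fluoxetine male 4, WT vehicle female 2 and WT vehicle male 3, where the limit that a count of 0 allows, 3 counts, corresponds to 3.04, 3.27 and 3.57 normalised counts. The highest value was 23.9, in het vehicle male 3, the library that was also highest in the olfactory marker Doc2g. Without a filter Dyrk4 was called in 0 of 12 comparisons, with limma adjusted p from 0.0847 upward.

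The members did not vary as 1 unit. Of the 15 pairs, after subtracting group means over 59 libraries, the class II pair Dyrk2 and Dyrk3 had the highest r, 0.67 (rho = 0.68, permutation p adjusted over 15 pairs 7.5e-05 for r and 0.00015 for rho), and r was 0.70 without the 2 het fluoxetine males and 0.43 once the olfactory mean was regressed out. Dyrk1a and Dyrk3 followed with r = 0.66 (rho = 0.52, adjusted permutation p 7.5e-05 and 0.0002), 0.52 without the 2 males. Dyrk1a and Dyrk2 had r = 0.39 and rho = 0.60 (adjusted permutation p 0.00752 and 0.00015). Dyrk1b and Dyrk2 ran opposite, at r = −0.47 and rho = −0.47 (adjusted permutation p 0.00116 and 0.0009), and −0.39 with the olfactory mean regressed out. Without the 2 libraries farthest from the median of the first gene, r was 0.64 for Dyrk2 and Dyrk3, 0.53 for Dyrk1a and Dyrk3, 0.46 for Dyrk1a and Dyrk2 and −0.52 for Dyrk1b and Dyrk2.

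Between the 3 genes that were higher in het mice, no positive correlation within groups had an adjusted permutation p under 0.05. Dyrk1b and Dcaf7 had r = 0.26 and rho = 0.27 (adjusted permutation p 0.0647 and 0.0626), and r was 0.31 without the 2 het fluoxetine males. Dyrk1a and Dyrk1b had r = −0.18 and rho = −0.19 (adjusted permutation p 0.229 and 0.204). Dyrk1a and Dcaf7 had r = −0.32 and rho = 0.14 (adjusted permutation p 0.0363 and 0.36), and the relation rested on few libraries: r was −0.04 without the 2 het fluoxetine males and 0.04 without the 2 libraries farthest from the median of Dyrk1a. Dyrk3 and Dcaf7 had r = −0.46 and rho = −0.29 (adjusted permutation p 0.00116 and 0.0565). Dyrk4, with few counts, had r between −0.44 and 0.08 with the others.

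As a description over the same 59 libraries, the genes most like each member among 13737 with a median of at least 50 normalised counts were Ipo5, Emc3 and Efna3 for Dyrk1a, each with r = 0.93, against 0.85, 0.85 and 0.83 without the 2 het fluoxetine males. Those for Dyrk2 were Rab6a, Gng2 and Atl1, with r of 0.94, 0.93 and 0.93. Dyrk3 was most like Plec, Numbl and B4galnt4, with r of 0.87, 0.87 and 0.86. For Dcaf7 they were Dvl3, Akap10 and Ago1, with r of 0.78, 0.78 and 0.77. Dyrk1b had no gene as near, with Ldhb, Nrg2 and Cdh24 at r of 0.61, 0.58 and 0.57. Depth and dissection are shared by all genes of a library.

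The wider pathway was read from 4 lists, beside the 21.4% of all genes called between genotypes over the treatments. Of 30 reported DYRK1A substrates, all tested, 12 were higher in het mice, 5 were lower and 13 were not called, with a median difference of 0.02 against 0.00 for all genes. Those of smallest p were Notch1, a receptor (0.18 ± 0.04, limma adjusted p = 0.0065), Rad54l2, a helicase of the SNF2 family (0.14 ± 0.03, adjusted p = 0.00754), the splicing factor Srsf6 (0.07 ± 0.02, adjusted p = 0.0115) and the transcription factor Foxo1 (0.21 ± 0.06, adjusted p = 0.0131). With vehicle alone, where 13.1% of all genes were called, 6 substrates were higher in het mice and 2 were lower of 30. Among them were Nfatc3 (0.23), Wasl (−0.27), Notch1 (0.24) and Rad54l2 (0.17). With the olfactory covariate 0 of 30 were called by limma in either comparison. That fit called 0 genes in all with vehicle and 0.525% of genes over the treatments, so this absence says little about the substrates. Without the 2 het fluoxetine males 13 were higher and 9 lower over the treatments, beside 26% of all genes called.

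Of 9 related kinases (HIPK, PRP4 and CLK), Clk2, which phosphorylates splicing factors, was higher in het mice (0.12 ± 0.02, limma adjusted p = 0.00354) and Hipk3 was lower (−0.08 ± 0.03, adjusted p = 0.0478) over the treatments. Without the 2 het fluoxetine males Hipk3 was not called, and 3 of the 9, Clk2 among them, were higher. Clk2 was also called with vehicle (0.18) and with the olfactory covariate over the treatments, and not once the 2 males were left out as well. Hipk3 was lower under fluoxetine in WT mice (−0.25 ± 0.06, adjusted p = 0.0194). Among the partners of DYRK2 and DCAF7, the kinase Map3k1 was higher in het mice over the treatments (0.51 ± 0.18, limma adjusted p = 0.0368). The formin Diaph1 (−0.12 ± 0.03, adjusted p = 0.0105) and Fam53c (−0.05 ± 0.02, adjusted p = 0.0489) were lower by limma. Map3k1, Diaph1 and Fam53c were also called with vehicle, and none of them with the olfactory covariate.

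Genes next to Dyrk1a on chromosome 16 did not share its rise. Of 12 listed, 9 were tested, and 1 was called: Ttc3, a ubiquitin ligase gene, was lower in het mice (−0.13 ± 0.03, limma adjusted p = 0.00835). The other 8 differed over the treatments by −0.12 (Cldn14), −0.07 (Ets2), −0.06 (Kcnj6), −0.05 (Vps26c), −0.04 (Hlcs), −0.02 (Erg), −0.01 (Kcnj15) and 0.00 (Pigp). Ttc3 was called with vehicle too (−0.18) and not with the olfactory covariate. Between genotypes under lithium or under fluoxetine, and between lithium and vehicle, none of the 4 lists held a called gene. Few genes were called there at all, so this says little about the lists. The shares of all genes were 0.0112% between genotypes under lithium and 0.0112% under fluoxetine. Between lithium and vehicle they were 0.497% in het mice and 0.162% in WT mice.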

How the data were processed

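Strand-specific libraries of polyadenylated RNA were made from dissected prefrontal cortex, per the labels. The tools named, per the submitters' processing notes, are DESeq2 1.19.11, Salmon 0.11.2 and R 3.6.0, beside the build GRCm38, without their roles. What the authors deposited is a single table of signal, a size-factor-scaled count for every gene and library, called the normalised count here. Its values are multiples of 1 step per library: 100% became whole counts within 0.01, although 3 steps lay so near 1 that this shows little for those libraries. Gene names came from a table of gene identifiers and coordinates from GENCODE M21 for GRCm38, and each matched 18077 of 18088 identifiers.

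Values were taken as log2(value + 1), which understates changes of low genes, for 17901 genes that reached 10 in 4 libraries. The test was limma (3.58.1, under R 4.3.3), with 1 mean for each of 12 groups, 47 residual degrees of freedom and a trend. The 12 comparisons weight sexes equally, with Benjamini-Hochberg adjustment over all genes and a threshold of 0.05. edgeR 4.0.16 was run on the recovered counts. Exact and 100000-draw permutation tests used numpy 2.4.6 and scipy 1.17.1. Alternatives were another pseudocount, 2 filters, TMM, quantile normalization, a replicate block, array weights, an olfactory covariate, leaving out 2 males or each library, and fits of the compared groups. The fit step was tested on simulated data. Members, lists and tests were chosen with earlier results of these data known. Named genes are the members, the 3 genes most like each, and up to 4 called genes of each list with smallest p, with every tested gene of the chromosome 16 list; 1 gene of the partner list is not reported here. The 116 pairs of replicates differed beyond sampling noise, with 3.15 to 87.9 in chi-square per gene. Reads that fit several paralogs may be split by the counting.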

Additional observations from a re-analysis of the deposited data

Results flagged for a closer look

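In 72 groups of 4 or 5 libraries (6 members in 12 groups), 6 had an end value far from the rest by Dixon's test, and chance alone gives about 1 in 20 groups. For Dyrk1a they were het vehicle male 2, at 2415 normalised counts with the next at 2288, and WT vehicle female 2, at 2327 with the next at 2203. For Dcaf7 it was WT lithium male 1, at 8718 with the next at 8242. For Dyrk4 they were het vehicle male 3, at 23.9 with the next at 6.22, het vehicle female 4, at 10.3 with the next at 4.46, and WT lithium male 1, at 9.24 with the next at 3.37. In each case the highest value of its group was the one apart.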

How the results depend on the processing

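Of 705 differences of the members recomputed under the alternatives, 679 stayed on their side of the threshold, 11 lost a call, 15 gained one and 0 called differences changed direction. Between genotypes over the treatments, 1 of 11 alternatives called Dyrk2, which was lower in het mice in all of them, by −0.15 to −0.02. Between genotypes with vehicle, 2 of 12 called Dyrk3. Of 2278 values not called, those without 1 library included, 56 changed sign. Among the correlations, that of Dyrk2 and Dcaf7 turned to r = 0.0822 once the olfactory mean was regressed out, and that of Dyrk1a and Dcaf7 to 0.0449 without the 2 libraries farthest from the median of Dyrk1a. Counts of genes called moved far more, and the cause was not tested. Olfactory covariate fits without the 2 het fluoxetine males, and the percent excess in fluoxetine males without them, were added after seeing the data.

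Array weights called 7567 genes between het and WT mice with vehicle, 4166 under lithium (3 members), 4 under fluoxetine and 7427 over the treatments. They called 1052 between lithium and vehicle in het mice (1 member) and 209 in WT mice, 3110 between fluoxetine and vehicle in WT mice (2 members), 3173 in the fluoxetine interaction (1 member) and 44 between sexes.

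With the olfactory covariate, genotype comparisons called 0 genes and 0 members with vehicle, 0 genes under lithium, 23 under fluoxetine and 94 over the treatments (limma). Lithium and vehicle differed in 152 genes in het mice and 69 in WT mice, and fluoxetine and vehicle in 1164 in het mice and 32 in WT mice. Without the 2 het fluoxetine males as well, the genotype counts were 0 genes and 0 members with vehicle, 1 gene under fluoxetine and 42 over the treatments. The lithium counts were then 453 in het mice (1 member) and 260 in WT mice, and the fluoxetine counts 281 in het mice (0 members) and 167 in WT mice.

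Without the 2 males and without the covariate, genotype comparisons called 4083 genes with vehicle, 9 under lithium (1 member) and 1 under fluoxetine. The lithium counts were 230 in het mice and 84 in WT mice, and the fluoxetine counts 76 in het mice (0 members) and 522 in WT mice. Fits of only the groups compared called 139 genes between genotypes with vehicle (1 member) and 0 under fluoxetine, 57 between lithium and vehicle in WT mice, 2 between fluoxetine and vehicle in het mice (0 members) and 1151 in WT mice (2 members). edgeR called 44 genes between genotypes under fluoxetine (1 member) and 1238 between fluoxetine and vehicle in het mice.

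Leaving out 1 library gave 29 to 5058 genes (1 to 4 members) between genotypes with vehicle, 2 to 32 (0 to 1) under lithium, 1 to 622 (0 to 1) under fluoxetine and 2547 to 5202 (3 to 3) over the treatments. The vehicle count was lowest without het vehicle male 3 and highest without het vehicle male 1. Lithium against vehicle gave 45 to 156 genes in het mice and 13 to 33 in WT mice, and fluoxetine against vehicle 239 to 2475 in het mice (0 to 2 members) and 13 to 376 in WT mice. The lithium interaction gave 0 to 1 genes and the fluoxetine interaction 0 to 1277 (0 to 1 members). The exact permutation p of Dyrk1a under fluoxetine ran from 0.00034 to 0.0666.

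The replicate numbers do not pair the samples: of 29 same-numbered het and WT libraries, 5 had deviations from their group means that correlated over 0.1 (range −0.42 to 0.39). A fit with the replicate block kept every call of a member, with Dyrk1a at 0.13, Dyrk1b at 0.11 and Dcaf7 at 0.11 over the treatments. Depth limits Dyrk4, which had 0 to 28 counts per library.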
